A study of Mus musculus with 3 samples.

Results

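The immunoglobulin kappa light chain locus (Igk) of the mouse was described here through every interval of the 4 deposited NBS1 and input peak lists whose start and end lie inside chr6:67000000-71000000 (build mm9). These were 66 intervals of the 21785 in all lists: 24 of AH2 NBS1, 18 of AH2 NBS1 after subtraction, 20 of AH2 input and 4 of R2K.Artm NBS1. Intervals that overlapped were joined across lists, which left 49 separate positions. The rule uses position alone, but the locus itself was chosen with earlier results of these data known.

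AH2 and R2K.Artm are mouse pre-B lines immortalised by v-Abl, a viral tyrosine kinase oncogene, and chromatin of each was precipitated with a rabbit monoclonal antibody against NBS1 and sequenced (ChIP-seq). The remaining library is input from AH2, genomic DNA with no antibody selection. The labels give the genotype of both lines as not available and name no treatment, and what either line carries or lacks is therefore not stated here. Each group is 1 library, so values carry no replicate error, no test between groups was made and no p-value is given.

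The kappa light chain gene is assembled by V(D)J recombination at the pre-B stage, when RAG1/2 cuts next to 1 V and 1 J segment and the ends are joined. A long array of V segments lies to one side of a short J cluster, followed by the constant exon; an enhancer sits between J and C and further enhancers lie beyond C. V kappa segments occur in both orientations, so joining to J deletes or inverts the DNA between. NBS1 forms a complex with MRE11 and RAD50 that gathers at broken DNA ends. In pre-B lines of this kind, inhibition of the v-Abl kinase is known to raise RAG1/2 and to start kappa rearrangement.

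In the RefSeq gene table, of build GRCm38.p6, the array holds 102 V segments and 60 V pseudogene segments, from Igkv2-137 to Igkv3-1, followed by 5 J segments and 1 constant region gene, Igkc. That build differs from mm9, so the table served for names and order alone, and no interval was given a gene or segment name. The locus was divided by rounded mm9 bounds taken from general knowledge: a flank from 67000 to 67500 kb, the V kappa array from 67500 to 70660 kb, the J kappa, C kappa and enhancer end from 70660 to 70700 kb and another flank from 70700 to 71000 kb. The array was divided at 68500 and 69500 kb into parts far from, midway to and near J kappa.

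The value of each interval is the authors' peak caller score, at least 50 in every list. It is used here to rank and describe intervals within 1 list, and scores or ranks of different lists are not compared as amounts of NBS1. The whole lists held 5201, 1489, 3192 and 11903 intervals, in the order AH2 NBS1, subtracted, R2K.Artm NBS1 and AH2 input. Depth of the libraries is unknown, so a position with no peak in a list is not shown to lack NBS1.

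AH2 NBS1 peaks were denser over Igk than on the rest of chromosome 6, while R2K.Artm NBS1 and input peaks were about as dense as elsewhere. AH2 NBS1 had 6.0 peaks per Mb in the window and 1.85 outside it on the same chromosome, a ratio of 3.24. The list after subtraction had 4.5 against 0.450 intervals per Mb, a ratio of 10.0. AH2 input had 5.0 against 3.89 per Mb, a ratio of 1.28, and R2K.Artm NBS1 had 1.0 against 1.16, a ratio of 0.862 on 4 peaks. High density was not particular to Igk. The heavy chain locus, described below, had 9.0 AH2 NBS1 peaks and 26.25 subtracted intervals per Mb. There R2K.Artm NBS1 had 3.25 and AH2 input 17.0 per Mb. These densities rest on 1 library per group and were not tested. The subtracted list comes from the same AH2 library as AH2 NBS1, with R2K.Artm NBS1 subtracted by its header, so its ratio is not a separate observation.

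**Figure D1:**
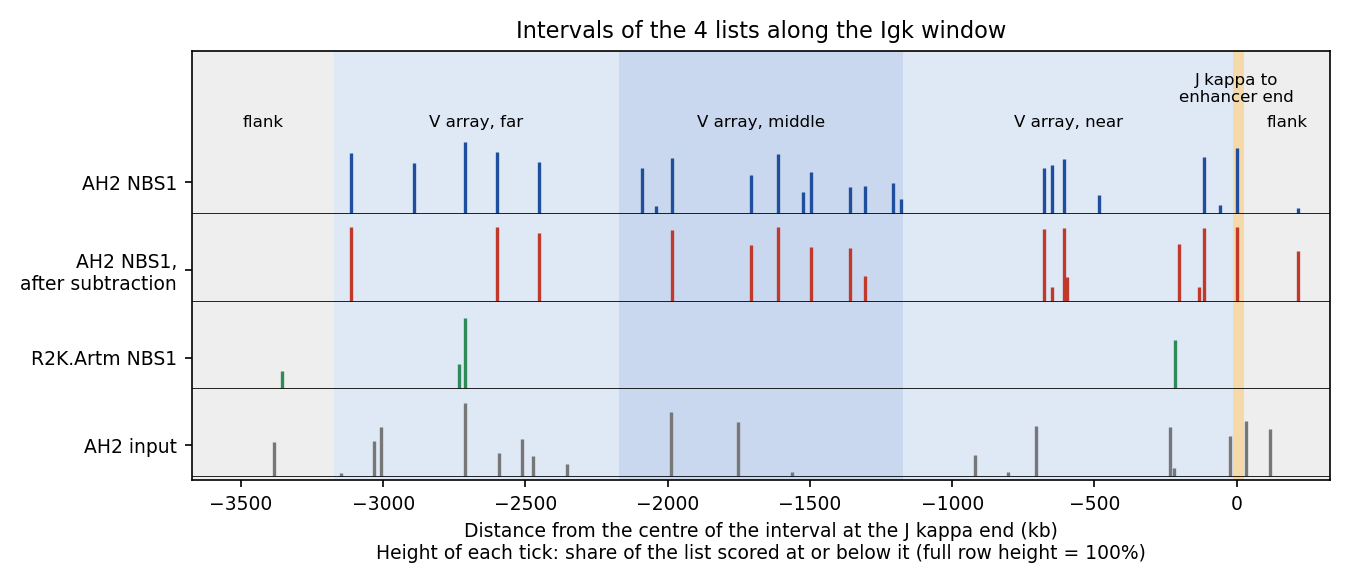
Position of every Igk interval in the 4 lists, as the distance in kb from the centre of the interval at the J kappa end, with shading for the rounded regions and tick height for the share of the whole list scored at or below that interval. AH2 NBS1 ticks run through the whole array, R2K.Artm NBS1 has 4 ticks in the window, and the J kappa to enhancer end holds a tick in both AH2 NBS1 lists and in neither other list.

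Most AH2 NBS1 peaks lay in the V kappa array. The array held 22 of the 24, the J kappa to enhancer end held 1 and the flanks held 1, which gives 6.96 per Mb in the array and 1.25 per Mb in the flanks. Within the array there were 5 in the far part, 11 in the middle part and 6 in the near part. After subtraction the counts were 3, 6 and 7, with 1 at the J kappa end and 1 in the flank beyond it. Input peaks also lay mostly in the array, 17 of 20, with 5.38 per Mb there and 3.75 per Mb in the flanks. The flank densities rest on 1 AH2 NBS1 peak and 3 input peaks. The array takes up most of the window, so a majority of peaks there would follow from its length alone. Input had 8 peaks in the far part, 3 in the middle part, 6 in the near part and 0 at the J kappa end. Its difference from AH2 NBS1 within the array thus rests on a few peaks in the far and middle parts and was not tested. R2K.Artm NBS1 had 2 in the far part, 0 in the middle part, 1 in the near part, 0 at the J kappa end and 1 in the flank before the array. The fullest 500 kb bin for AH2 NBS1 ran from 69000 to 69500 kb and held 7 peaks, beside 4 intervals of the subtracted list, 0 R2K.Artm NBS1 peaks and 1 input peak.

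The J kappa, C kappa and enhancer end held a single position, chr6:70672652-70673045, 394 bp wide, present with the same start and end in both AH2 NBS1 lists. It scored 166 in AH2 NBS1, rank 650 of 5201, and was the second highest of the 24 Igk peaks there. In the subtracted list it scored 233, rank 10 of 1489, the highest of the 18. Both lists come from the same library, so the second occurrence is not a replicate. The nearest R2K.Artm NBS1 peak, chr6:70454702-70454887, was 218 kb away. The nearest input peak, chr6:70649452-70649609, was 23.0 kb away on the V side, and the next, chr6:70704880-70705029, lay in the flank beyond. This end is 40 kb long, so a list as dense there as in its part of the array would have few or no peaks in it, and the absence of input or R2K.Artm NBS1 peaks there shows little by themselves.

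In the part of the array far from J kappa, the first AH2 NBS1 peak was at chr6:67560143-67560554, near the outer end of the array. It was the widest of the 24, at 412 bp, and scored 120 (rank 1012 of 5201). It was kept after subtraction, with a score of 156 (rank 20 of 1489). The next peak, chr6:67781052-67781119, was narrow, 68 bp, with a score of 88.4, and was not kept. The peaks at chr6:68071516-68071753 (score 126) and chr6:68221011-68221183 (score 89.2) were both kept, with ranks 26 and 132 of 1489 in the subtracted list. The first of these had an input peak 7.09 kb away, at chr6:68078841-68078919, with no overlap.

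The remaining peak of the far part, chr6:67961851-67962042, was the one position of the window found in all 3 libraries. It scored 362 in AH2 NBS1, rank 272 of 5201 and the highest of the 24. The R2K.Artm NBS1 peak there, chr6:67961849-67962033, scored 426 (rank 193 of 3192), and the input peak, chr6:67961838-67962046, scored 408 (rank 238 of 11903). It was the top Igk interval of each of those 3 lists and was absent from the subtracted list. A peak at this position was thus called without the antibody as well, and it was the one Igk overlap between any unsubtracted lists.

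The middle part of the array held 11 AH2 NBS1 peaks and no R2K.Artm NBS1 peak. The highest were chr6:69060897-69061175, with a score of 115 and 279 bp wide, and chr6:68686318-68686551, with 98.9 and 234 bp. Both were kept, with scores of 135 (rank 25 of 1489) and 90.5 (rank 86). The second lay 1.87 kb from an input peak, chr6:68684229-68684450, which with a score of 91.3 was the second highest of the 20 Igk input peaks. It therefore counts as free of input by overlap but not by a distance of 2 kb. Of the other 9, the peaks at chr6:68966592-68966793, chr6:69176799-69177023, chr6:69312907-69313003 and chr6:69366893-69367092 were kept, with AH2 NBS1 scores of 68.49, 71.1, 58.5 and 59.0. Those at chr6:68581109-68581206, chr6:68630473-68630625, chr6:69147660-69147821, chr6:69466330-69466395 and chr6:69494363-69494539 were not kept, with scores of 77.0, 51.7, 56.3, 60.6 and 53.6.

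In the near part of the array 3 AH2 NBS1 peaks stood close together at chr6:69994093-69994408, chr6:70024023-70024257 and chr6:70067057-70067347, with scores of 76.6, 83.3 and 96.9. All 3 were kept, and their ranks in the subtracted list were 66, 1227 and 44 of 1489, so the middle one was near that list's lower end. Closer to J kappa, chr6:70557737-70558102 was 366 bp wide, scored 104 and was kept (rank 45 of 1489). The peaks at chr6:70190463-70190633 and chr6:70613626-70613740 scored 55.0 and 52.0 and were not kept. The single AH2 NBS1 peak of the flanks, chr6:70889500-70889629, beyond the enhancers, scored 51.1, the lowest of the 24, and was kept with 59.5 (rank 493 of 1489).

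The subtracted list also had 3 Igk intervals that overlapped no AH2 NBS1 peak, all in the near part: chr6:70074618-70074781, chr6:70468613-70468814 and chr6:70539235-70539358. Their scores of 52.4, 61.8 and 51.0 put them at ranks 1020, 360 and 1219 of 1489. The first lay 7.27 kb from the kept peak at 70067057 and the third 18.4 kb from that at 70557737. The second had an R2K.Artm NBS1 peak 13.7 kb away and an input peak 17.2 kb away. From 70439393 to 70468814 there were thus 2 input peaks, 1 R2K.Artm NBS1 peak and this interval, none overlapping another and none matched by an AH2 NBS1 peak.

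Beside the position shared by all libraries, R2K.Artm NBS1 had 3 peaks in the window. They were at chr6:67318830-67318985 in the flank before the array (score 55.4), chr6:67937752-67937936 (58.3) and chr6:70454702-70454887 (85.5), with ranks 2432, 2138 and 1122 of 3192. None overlapped another list. The last lay 3.26 kb from the input peak at chr6:70451300-70451444. From the shared position at 67961849 to that last peak, R2K.Artm NBS1 had a stretch of 2493 kb with no peak, in which AH2 NBS1 had 17, the subtracted list 12 and input 12.

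Of the 24 AH2 NBS1 peaks in Igk, 1 (4.17%, 95% Wilson interval 0.739 to 20.2%) overlapped an R2K.Artm NBS1 peak, against 32.8% of the whole list. R2K.Artm NBS1 had only 4 peaks in the window, so at most 4 of the 24 could overlap one. On the rest of chromosome 6 it had 165 peaks beside 263 of AH2 NBS1. A share below that of the whole list was therefore set by the few R2K.Artm NBS1 peaks and shows no separate disagreement of positions. The same peak was the 1 of 24 that overlapped input, against 28.9% of the whole list. The other 23 (95.8%, 79.8 to 99.3%) overlapped neither, against 59.4% of all AH2 NBS1 peaks and 59.3% on the rest of chromosome 6 (156 of 263). In the reverse direction, 1 of 4 R2K.Artm NBS1 peaks overlapped AH2 NBS1 (25%, 4.56 to 69.9%, whole list 52.0%), and 1 of 20 input peaks did (5.0%, 0.888 to 23.6%, whole list 12.5%). The Wilson intervals cover counting error within 1 library only and treat neighbouring peaks as independent. For the last comparisons the interval includes the share of the whole list.

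Retention after subtraction was also more frequent than in the whole list. Of the 24 peaks 15 were kept (62.5%, 42.7 to 78.8%), against 17.7% of all AH2 NBS1 peaks and 16.7% on the rest of chromosome 6. Among peaks that overlapped neither R2K.Artm NBS1 nor input the counts were 15 of 23 (65.2%, 44.9 to 81.2%) in Igk and 27.0% in the whole list. Seen from the subtracted list, 15 of its 18 Igk intervals (83.3%, 60.8 to 94.2%) matched a peak of AH2 NBS1 exactly, beside 61.9% of the list and 68.8% on the rest of chromosome 6, where the difference is within counting error. None of the 18 overlapped input or R2K.Artm NBS1, which allows a share of up to 16.7% (3 counts of the total), and these shares were 6.18% and 0.672% in the whole list. By its header this list was made by subtracting R2K.Artm NBS1, and its title names input as well. Little overlap with R2K.Artm NBS1 is thus built into the list and is no trait of Igk. It was also 0 of 105 in the heavy chain locus and 0 of 64 on the rest of chromosome 6.

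**Figure D2:**
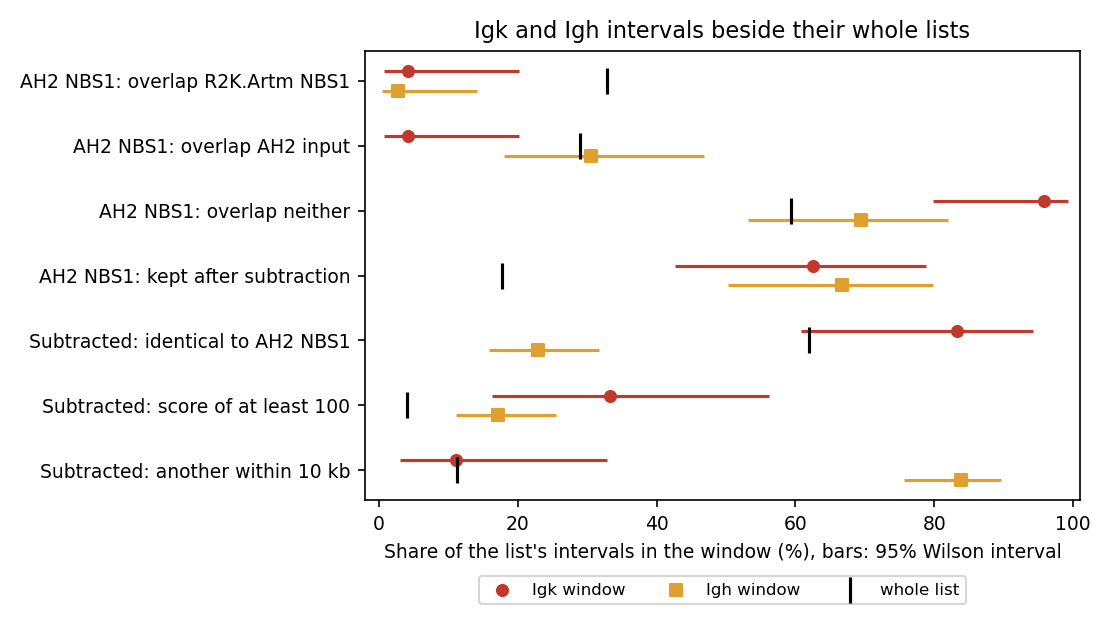
Share in percent of the Igk intervals (circles) and Igh intervals (squares) that meet each condition on the left, with 95% Wilson intervals as bars, beside the share of the whole list (black ticks). In Igk, 95.8% of AH2 NBS1 peaks overlapped neither other list and 62.5% were kept, where the whole list had 59.4% and 17.7%. R2K.Artm NBS1 had only 4 peaks in Igk, which limits overlap with it.

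By median, the 15 kept peaks were wider and higher in score than those that were not kept. The highest-scoring of the 24, the position shared by all libraries (score 362), was not kept. Among peaks that overlapped neither other list, the 15 kept had a median AH2 NBS1 score of 89.2 (lowest 51.1, highest 166) and the 8 not kept had 55.7 (51.7 to 88.4). Their median widths were 235 bp (97 to 412) and 134 bp (66 to 177). The ranges overlapped in both measures. All 11 peaks wider than 200 bp were kept, and 4 of the 13 of at most 200 bp were; this bound was chosen after the widths were seen. In the whole list, kept and not kept peaks of the same kind hardly differed, with median scores of 58.9 and 58.1 and median widths of 116.5 and 115 bp.

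**Figure D3:**
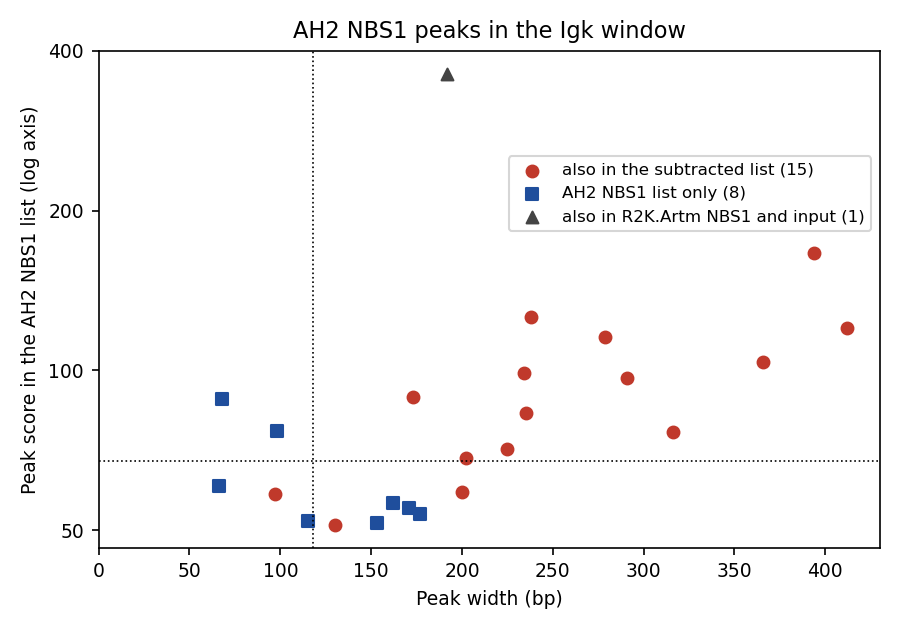
Score (log axis) against width in bp for the 24 AH2 NBS1 peaks in Igk, by whether they were kept in the subtracted list, with dotted lines at the medians of the whole AH2 NBS1 list (67.6 and 118 bp). Kept peaks reach a width of 412 bp, those of the AH2 NBS1 list alone stay at or below 177 bp, and the peak shared with R2K.Artm NBS1 and input has the highest score, 362.

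Igk peaks were wide for their lists. The median width was 196 bp for the 24 AH2 NBS1 peaks, 118 bp in the whole list and 117 bp on the rest of chromosome 6, and 19 of 24 exceeded the whole-list median (79.2%, 59.5 to 90.8%, whole list 49.3%). In the subtracted list the medians were 229.5 bp in Igk and 121 bp in all, and 17 of 18 were above the latter (94.4%, 74.2 to 99.0%, whole list 48.4%). Input peaks in Igk had a median of 148 bp, close to the 134 bp of their list, and 12 of 20 exceeded it (60%, 38.7 to 78.1%, whole list 49.2%). The 4 R2K.Artm NBS1 peaks were 156 to 186 bp wide, all above their list's median of 145 bp (4 of 4, whole list 49.6%).

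By score, the Igk intervals stood high in the subtracted list and near the middle of the others. Of the 18, 6 had a score of at least 100 (33.3%, 16.3 to 56.3%), against 4.03% of the subtracted list and 1 of 64 on the rest of chromosome 6. Of these 6, 5 lay in the array and the other was the interval at the J kappa end. Among AH2 NBS1 peaks 6 of 24 reached that score (25%, 12.0 to 44.9%), against 25.7% of the list, so the shares were close. Their median was 76.8 beside 67.6 for all. Input had 1 of 20 (5.0%, whole list 12.4%) and R2K.Artm NBS1 had 1 of 4 (25%, whole list 28.3%), in each case the position shared by all libraries. The order of the 15 identical intervals was alike in both AH2 lists: 4 of the 5 highest were the same, and Spearman's rho across the 15 was 0.868, given as a description, since both scores come from the same library. None of the 15 had an equal score in both lists, within 0.01, and equal scores were also few in the whole lists, 64 of 922.

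**Figure D4:**
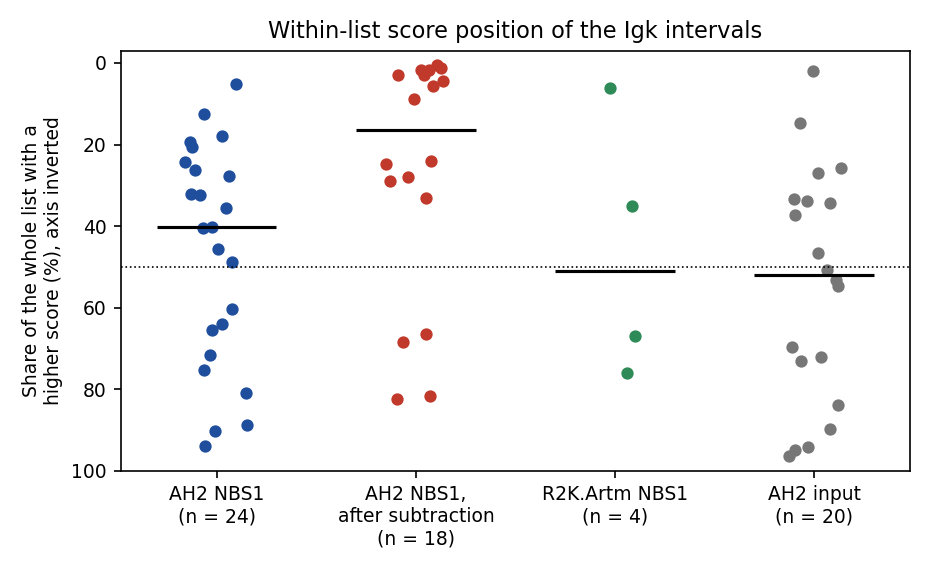
For each Igk interval, the share of its whole list with a higher score, in percent on an inverted axis, so that the strongest intervals are at the top; bars mark medians and the dotted line the middle of a list. The median was 16.5% in the subtracted list, 40.2% in AH2 NBS1, 51.0% in R2K.Artm NBS1 and 52.0% in AH2 input.

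The Igk intervals were spread along the locus with shorter gaps than on the rest of chromosome 6 in both AH2 NBS1 lists. Gaps between neighbouring AH2 NBS1 peaks ranged from 27.97 to 499.6 kb with a median of 99.2 kb. None of the 24 had another within 10 kb, which allows up to 12.5% if peaks are taken as independent. The share on the rest of chromosome 6 (26 of 263, 9.89%) was inside that bound, and that of the whole list (16.5%) was above it. On the rest of chromosome 6 the median gap was 358 kb. The longest stretch without an AH2 NBS1 peak inside the array ran from 69494539 to 69994093, and 3 input peaks lay in it. In the subtracted list the median gap was 116 kb in Igk and 1647 kb on the rest of the chromosome, and 2 of 18 intervals, the pair at 70067057 and 70074618, were within 10 kb of each other (11.1%, 3.10 to 32.8%), close to the 11.3% of the whole list; on the rest of chromosome 6, 0 of 64 had such a neighbour. Input peaks had a median gap of 117 kb in the window and 162 kb elsewhere on the chromosome, and none of the 20 had another within 10 kb (up to 15%, whole list 16.6%). For input, the share on the rest of chromosome 6 (62 of 554, 11.2%) was inside that bound.

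The heavy chain locus (Igh), taken as 114000 to 118000 kb of chromosome 12, differed from Igk in the form of its intervals. Its subtracted list had 105 intervals with a median gap of 2.69 kb, and 88 (83.8%, 75.6 to 89.6%) had another within 10 kb, against 2 of 18 in Igk. In Igh 24 of the 105 (22.9%, 15.9 to 31.8%) matched an AH2 NBS1 peak exactly, against 15 of 18 in Igk, and these Wilson intervals do not overlap. They treat neighbouring intervals as independent, which the crowded intervals of Igh are not, so they are too narrow there and make no test between the loci. Overlap with input was found for 11 of 36 AH2 NBS1 peaks in Igh (30.6%, 18.0 to 46.9%) and 1 of 24 in Igk, with intervals that overlap slightly. Other measures were alike in both loci. Overlap with R2K.Artm NBS1 was low in each, 1 of 36 AH2 NBS1 peaks in Igh (2.78%, 0.492 to 14.2%) and 1 of 24 in Igk. R2K.Artm NBS1 itself had 13 peaks in Igh and 4 in Igk, which limits how many could overlap. The kept peaks were 24 of 36 (66.7%, 50.3 to 79.8%) and 15 of 24. Wide intervals were common in Igh too, where 27 of 36 AH2 NBS1 peaks (75.0%, 58.9 to 86.2%) and 88 of 105 subtracted intervals (83.8%, 75.6 to 89.6%) exceeded the median width of their list. High scores in the subtracted list were shared as well. In Igh 18 of 105 intervals scored at least 100 (17.1%, 11.1 to 25.5%), beside 4.03% of the list. That Wilson interval overlaps the one of Igk (6 of 18, 16.3 to 56.3%). All lists were denser in Igh. AH2 NBS1 had 9.0 per Mb against 6.0 in Igk, the subtracted list 26.25 against 4.5 and R2K.Artm NBS1 3.25 against 1.0. Input peaks were themselves denser in Igh, 17.0 per Mb against 5.0 per Mb in Igk, and the part of this input density in the differences between the loci was not tested.

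**Figure D5:**
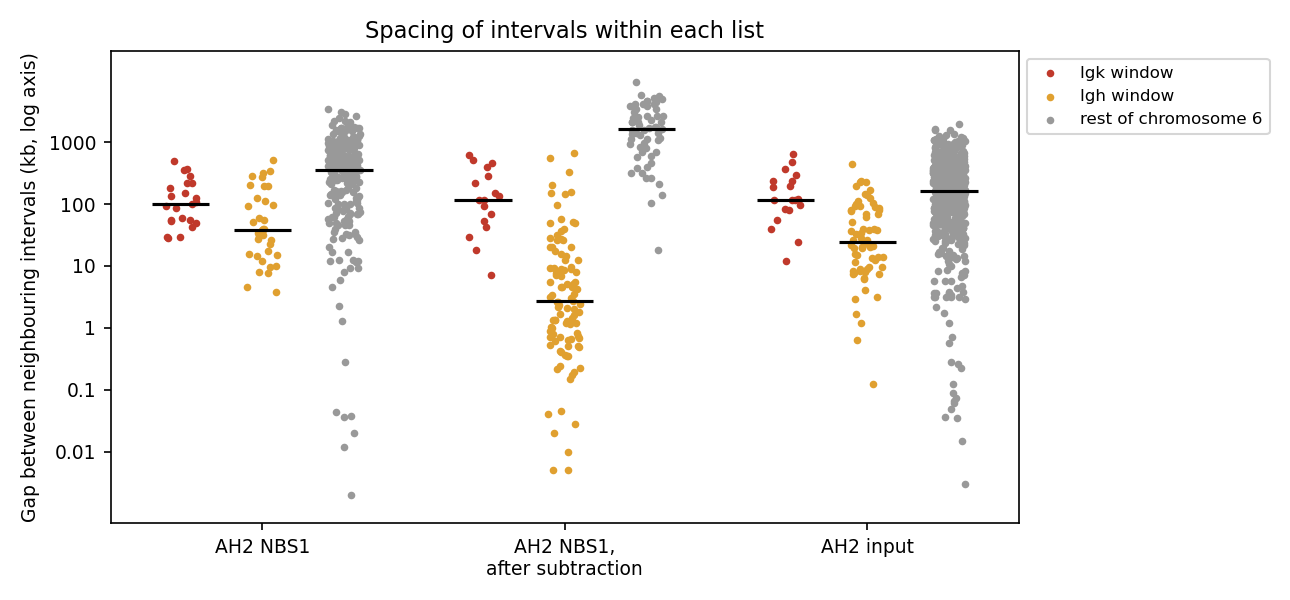
Gaps in kb (log axis) between neighbouring intervals of the same list, with bars at the medians, in the Igk window, the Igh window and the rest of chromosome 6. In the subtracted list the Igk median is 116 kb, the Igh median 2.69 kb and that of the rest of chromosome 6 1647 kb.

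The 20 input peaks of the window, from DNA not selected with the antibody, had scores like those of their whole list. Their scores ran from 50.4 to 408 with a median of 59.2, beside 59.9 for the whole list. The 5 highest were the position shared by all libraries, chr6:68684229-68684450 (score 91.3), chr6:70704880-70705029 (73.5), chr6:68920474-68920675 (72.2) and chr6:69966851-69966972 (67.4). Of the 20, 19 overlapped no NBS1 interval, which was also the rule in the whole input list, where 12.5% overlapped AH2 NBS1 and 10.6% R2K.Artm NBS1. The median distance from an AH2 NBS1 peak in Igk to the nearest input peak was 55.3 kb, and to the nearest R2K.Artm NBS1 peak 447 kb.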

How the data were processed

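ChIP-seq against NBS1 in AH2 and R2K.Artm and an AH2 input library gave 4 deposited peak lists from 3 libraries. Crosslinking was in 1% formaldehyde for 5 min, and fragments averaged 250 bp, per the labels' protocols. Bowtie, MACS 1.4.2 and build mm9 are named in the submitters' processing notes. Not given in the sources used here are the Bowtie version, the control of each call and the way of subtraction. The title of the subtracted file names R2K.Artm NBS1 and input, its header R2K.Artm NBS1 alone. Each deposited interval carries a score, written by the authors' peak caller. Reads and coverage were not used here, so depth is unknown; a deeper library or another control would change which peaks pass.

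Intervals were joined in Python 3.11.15 (numpy 2.4.6, pandas 2.3.3), with an overlap of at least 1 base as shared; region membership followed the midpoint. Positions are 1-based, with 1 added to each deposited start. Shares carry 95% Wilson intervals (scipy 1.17.1); figures used matplotlib 3.10.9. Joins were tested on simulated data. Of input intervals, those overlapping or within 10 kb of an NBS1 interval and the 5 highest in score were to be named, and every interval of the other lists; a few further input intervals are named as neighbours. The window, regions and lists were chosen with earlier results of these data known. The mm9 sequence was not used here, so no sequence is shown.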

Additional observations from a re-analysis of the deposited data

How the results depend on the processing

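No paired analysis was possible because no group holds more than a single library, which also meant that no library was left out. For 26 results 88 alternative values were computed, and 66 stayed within the 95% interval of the reported share or within 1.5 times the reported count, among them all those for other window bounds, left-out chromosomes, merged intervals, 50% coverage and a distance of 1 kb. At scores of at least 100 the Igk share became 10.0% of the subtracted list (reported 1.21%) and 0.0678% of input (0.168%), on 6 and 1 intervals. At that limit 83.3% of AH2 NBS1 peaks were also in the subtracted list (5 of 6), and the single R2K.Artm NBS1 peak and the single input peak left, 100.0% each, overlapped AH2 NBS1. The array then held 5 AH2 NBS1, 5 subtracted, 1 R2K.Artm NBS1 and 1 input interval, and the flanks 0 of each. Of the 6 Igk intervals of the subtracted list left, 0% had another within 10 kb (95% Wilson interval up to 39.0%). With the J kappa end begun at 70600 kb it held 2 AH2 NBS1 peaks and 1 input peak. By construction, a neighbour within 100 kb was commoner: 60% of input, 50% of R2K.Artm NBS1, 61.1% of subtracted and 70.8% of AH2 NBS1 intervals had one. Without the position called in all libraries, an alternative chosen after seeing the data, overlap of the 23 other AH2 NBS1 peaks was 0% with input and 0% with R2K.Artm NBS1. The counts are small, region bounds are rounded, and unknown depth limits every statement on absent peaks. For changes explained by no construction given here, the cause was not tested.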
